A study of Homo sapiens with 12 samples.

Results

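The comparison of dTAG-S30 with DMSO-S30 asked what acute loss of KAP1 did to the RNA of cells that had been starved and then given serum for 30 min. Its libraries were the 3 dTAG-S30 libraries, from cells given the degrader ligand, and the 3 DMSO-S30 libraries, from cells given its solvent, out of 12 RNA-Seq libraries in the series. Its members were all genes that reached 10 counts in 6 or more of these 12 libraries, which left 13093 of the 19901 genes in the deposited table. The choice of libraries and genes used no measured difference between dTAG and DMSO.

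All 12 libraries came from HCT116 cells, an established human colorectal carcinoma line, of the genotype KAP1_dTAG_CloneD5. Every library therefore carried the tagged KAP1 allele and came from 1 clone. Serum was withheld for 48 h, with the ligand dTAG or DMSO added for the last 8 h. S30 cells then received serum for 30 min, while the DMSO-S0 and dTAG-S0 cells, used below only as a second view of the same genes, received none. The ligand brings the tagged protein to the Cereblon E3 ubiquitin ligase, which marks it for the proteasome. Cells without the tag that had received the ligand were not analysed here, so an effect of KAP1 loss and an effect of the ligand itself cannot be told apart in these data. The study describes 3 biological replicates a group, and the labels do not say how they were separated, so the p-values cover the spread between these libraries.

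KAP1, encoded by TRIM28, is a scaffold protein that KRAB zinc finger proteins bring to DNA, where it recruits the histone methyltransferase SETDB1 and heterochromatin proteins to silence transposable elements. It also binds at promoters of genes that respond to signals. Serum activates the RAS-ERK pathway and other signals, which switch on the immediate early genes within minutes through factors already present in the cell. SREBP factors, a separate regulatory branch, raise the genes of sterol and fatty acid synthesis when membrane sterol is low, and serum lipoproteins supply sterol to cells.

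Degradation removes the protein and leaves the message, so TRIM28 RNA is no measure of the depletion. TRIM28 stood at 120.4, 109 and 115 CPM in DMSO-S30 replicates 1 to 3 and at 103, 116 and 117 CPM in the dTAG-S30 replicates. These ranges overlapped, and the gene was not called (log2 fold change -0.05 ± 0.07 (SE), adjusted p = 0.863 in edgeR's quasi-likelihood test). Here and below, levels are those of replicates 1, 2 and 3, first with DMSO and then with dTAG. CPM, a count normalised to library size, was computed after upper-quartile scaling. Reads were counted over the whole gene, introns included, so these levels mix spliced and unspliced RNA.

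The 6 libraries held between 22950801 and 25231408 counts, and ERCC spike-in transcripts took 8.43% ± 0.265 of them with DMSO and 8.49% ± 0.495 with dTAG (SD, n = 3 each). An exact two-sided permutation test of that share gave p = 1, where the smallest p that 20 assignments allow is 0.1. The dTAG-S30 replicate 1 library stood furthest from its group: its 2 pairs had a chi-square per degree of freedom of 9.86 and 9.88, against 3.04 to 8.20 in the other 10 replicate pairs of the series. Of 11 markers of colorectal epithelium, EPCAM, CDH1, KRT8, KRT18, KRT19 and CDX2 were tested, while CDX1, VIL1, KRT20 and LGALS4 were near 0 and CEACAM5 was at 0. The 11 markers summed to between 1303 and 1376 CPM with DMSO and between 1372 and 1564 CPM with dTAG. Markers of other cell types were low: the 7 leukocyte markers summed to between 1.03 and 2.34 CPM and the 5 endothelial markers to between 2.32 and 4.42 CPM over the 6 libraries, with the ranges of both groups overlapping. The 9 fibroblast markers summed to between 77.0 and 84.4 CPM with DMSO and between 64.8 and 77.7 CPM with dTAG. Nearly all of that sum was COL1A1, which was not called, while PDGFRA, LUM and DCN were at 0. In bulk RNA, fewer cells that express a gene and less RNA per cell cannot be told apart.

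After 8 h of dTAG and 30 min of serum, RNA of the lipid synthesis pathways was higher than in the DMSO cells, and RNA of several serum-induced regulators and YAP-TEAD target genes was lower. At an adjusted p under 0.05, 80 genes were called higher (0.611% of the genes tested) and 84 were called lower (0.642%), 164 in all (1.25%). The changes were small: the median absolute log2 fold change of the called genes was 0.37, 12 genes rose and 11 fell by at least 1.5-fold, and 1 rose and 3 fell by at least 2-fold. The median over all 13093 genes was -0.00067 on the log2 scale, with 6513 values above 0 and 6580 below 0. Libraries of the 2 groups did not overlap for any of the 164 called genes, which was also true of 2058 genes in all (15.7%).

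The number of calls depended on single libraries. Omitting DMSO-S30 replicate 2 gave 99 (39 higher), and omitting the third DMSO-S30 replicate gave 100 (52 higher, 48 lower). It was 267, 248 and 249 without DMSO-S0 replicates 1, 2 and 3 (152, 143 and 140 lower), which enter this comparison only through the shared fit. Without dTAG-S30 replicate 1, the library that stood apart, it was 233 (131 lower), of which 122 were among the 164. All 164 genes kept the sign of their change in each of these fits.

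**Figure D1:**
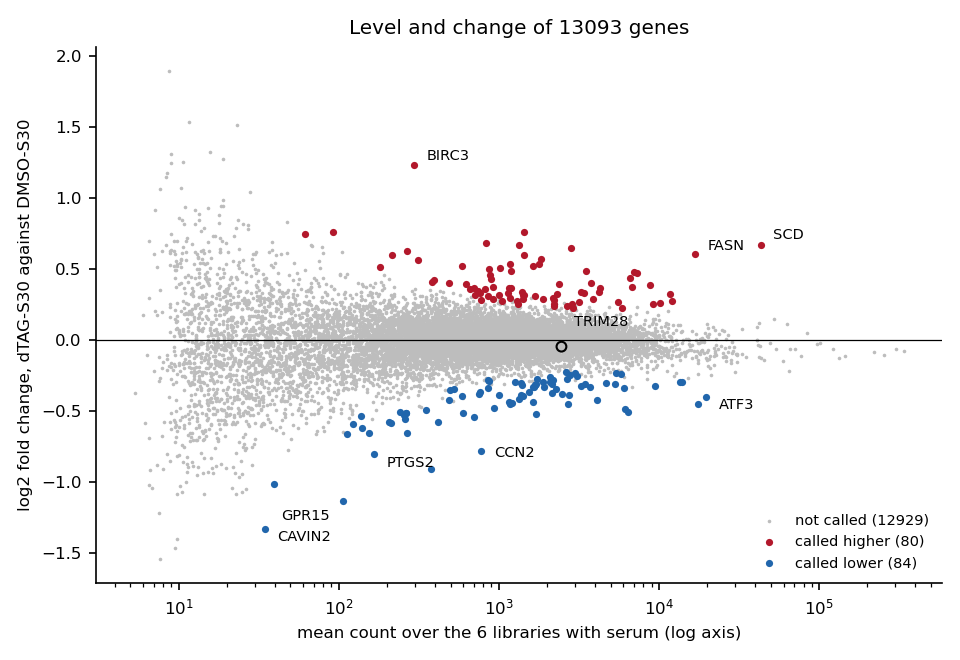
Each point is 1 of the 13093 genes, placed by its mean count over the 6 serum libraries (log axis) and its log2 fold change between dTAG-S30 and DMSO-S30. Most of the 80 called higher and 84 called lower lie within 1 log2 unit of 0, and calls are few among genes with low counts.

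The 12 largest rises, taken among called genes with a mean count of at least 50, were BIRC3, ACSS2, PRR15, CYP4F2, PLAT, LPIN1, SCD, DHCR7, FGFBP1, FASN, SLC2A6 and MVD, with log2 fold changes from 1.24 down to 0.60. Of these, ACSS2, LPIN1, SCD, DHCR7, FASN and MVD encode enzymes of lipid synthesis. PLAT, which encodes tissue plasminogen activator, stood at 29.5, 28.3 and 29.5 CPM with DMSO and 45.5, 45.6 and 51.1 CPM with dTAG. SLC2A6, a glucose transporter family member, stood at 8.00, 7.75 and 7.44 and 11.4, 12.6 and 11.7 CPM. FGFBP1, a carrier of fibroblast growth factors, stood at 8.34, 8.99 and 11.1 and 14.7, 14.9 and 14.9 CPM, and its call was lost without DMSO-S30 replicate 2 (adjusted p = 0.0748). PRR15 and CYP4F2 were low in every library (2.46 to 5.53 CPM and 1.98 to 4.13 CPM). The PRR15 call was lost on omitting DMSO-S30 replicate 2 or 3 or dTAG-S30 replicate 2 (adjusted p up to 0.191), and the CYP4F2 call without any single serum library (adjusted p up to 0.197). CYP4F2 was also not called in 7 of the 11 other alternatives, among them TMM scaling, DESeq2 and the 6 serum libraries alone (adjusted p up to 0.196).

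The clearest group was cholesterol synthesis. Of 21 enzymes listed, 19 were tested, 15 rose and none fell, with a median log2 fold change of 0.38 over the 19. GGPS1 and CYP51A1 had at most 1 and 2 counts in any serum library and were not tested. In the annotation CYP51A1 overlaps LRRD1 and GGPS1 overlaps ARID4B. The part of these overlaps in the low counts was not tested.

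The early steps lead from acetyl-CoA to mevalonate. ACAT2, the cytosolic thiolase that joins 2 acetyl-CoA units, stood at 67.2, 67.1 and 66.3 CPM with DMSO and 98.0, 97.2 and 96.0 CPM with dTAG. HMGCS1, which makes HMG-CoA, stood at 286, 283 and 278 CPM and 423, 393 and 349.7 CPM. The fitted rises were 44.7% and 38.7%, and the groups did not overlap, as in all 164 called genes. ACAT2 overlaps TCP1 on the other strand, and whether strand was used in counting is not given in the sources used here.

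From mevalonate to squalene, MVK, MVD, IDI1, FDPS and FDFT1 rose and PMVK was not called. MVD, the mevalonate diphosphate decarboxylase, was 48.1, 52.1 and 55.0 CPM with DMSO and 78.7, 77.6 and 82.7 CPM with dTAG (log2 fold change 0.60 ± 0.07, adjusted p = 2.67e-06). Squalene synthase, FDFT1, was 268, 256 and 244 CPM and 348, 355 and 332 CPM. MVK, IDI1 and FDPS had log2 fold changes of 0.43, 0.37 and 0.33. PMVK, the kinase between MVK and MVD, went the other way in value, with 16.6, 17.5 and 18.8 CPM in the DMSO libraries and 14.6, 15.7 and 17.2 CPM in the dTAG libraries (log2 fold change -0.21 ± 0.09, adjusted p = 0.368).

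From squalene to cholesterol, LSS, MSMO1, NSDHL, HSD17B7, EBP and DHCR7 rose. DHCR7, which reduces 7-dehydrocholesterol to cholesterol, had the largest change of the pathway: 103, 98.2 and 99.4 CPM with DMSO against 145, 165 and 168 CPM with dTAG, a log2 fold change of 0.65 ± 0.07 (adjusted p = 6.89e-07). Lanosterol synthase, LSS, stood at 67.0, 66.1 and 69.6 CPM and 102, 97.8 and 103 CPM. SQLE, squalene epoxidase and a second control point of the pathway, was not called, with 96.0, 96.0 and 87.3 CPM and 98.1, 101 and 92.5 CPM (adjusted p = 0.790). SC5D and TM7SF2 were not called either (log2 fold changes 0.24 and 0.23, adjusted p = 0.0659 and 0.262), although their groups did not overlap.

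Which of the 15 sterol enzymes passed moved with single libraries: between 12 and 16 passed when 1 library was left out, 13 when libraries were scaled by their ERCC counts. NSDHL lost its call without DMSO-S30 replicate 2 or 3, HSD17B7 without DMSO-S30 replicate 1 or dTAG-S30 replicate 1, and IDI1 without DMSO-S30 replicate 3 (adjusted p up to 0.157, 0.0955 and 0.0539).

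Promoter sequences of HMGCS1 and MVD are shown because SREBP works together with the factor NF-Y, which binds the CCAAT box. They are the 250 bases before the RefSeq start of each gene (GRCh38.p14), written 5′ to 3′ on the strand of the gene, with CCAAT boxes, or ATTGG where the box is on the other strand, in capitals. The HMGCS1 sequence is at chr5:43313413-43313662 and the MVD sequence at chr16:88663092-88663341, both on the minus strand. The deposited annotation starts both genes further upstream than RefSeq does, so part of each window lies within its gene there.
HMGCS1: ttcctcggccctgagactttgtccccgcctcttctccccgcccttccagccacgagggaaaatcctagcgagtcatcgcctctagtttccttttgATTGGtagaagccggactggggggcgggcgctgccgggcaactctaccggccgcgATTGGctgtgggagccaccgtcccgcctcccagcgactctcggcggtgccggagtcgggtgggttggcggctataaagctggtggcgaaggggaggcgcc
MVD: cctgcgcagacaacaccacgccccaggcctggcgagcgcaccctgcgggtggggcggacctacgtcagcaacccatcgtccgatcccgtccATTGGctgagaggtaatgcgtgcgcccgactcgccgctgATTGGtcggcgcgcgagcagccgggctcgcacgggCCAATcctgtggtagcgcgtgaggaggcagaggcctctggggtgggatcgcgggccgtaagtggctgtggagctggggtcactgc
HMGCS1 held 2 boxes, which began 155 and 100 bases before the start, and MVD held 3, at 159, 120 and 85 bases. These genes were picked after their values were seen and because they held the box, so they illustrate and test nothing. CCAAT on either strand was present in 35.7% of the 27305 RefSeq promoters, counted over windows that also ran past the start. The sterol response element (TCACNCCAC), searched for as well, was not found in the HMGCS1 or the MVD promoter. That element was present in 1.15% of the 27305 promoters. A promoter was given for 14 of the 19 tested sterol enzymes, under the 80% that a comparison over the list would need, so no share over the list is given.

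**Figure D2:**
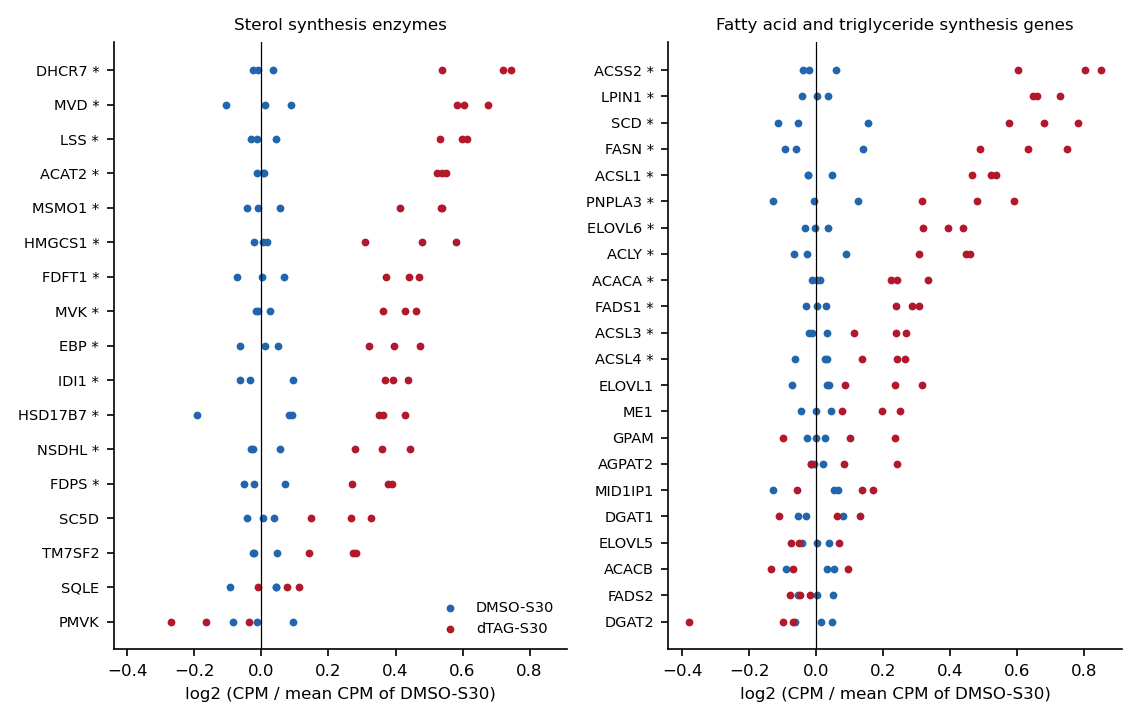
Each point is 1 library, placed by the log2 ratio of its CPM to the mean of the 3 DMSO-S30 libraries, for sterol synthesis enzymes (left) and fatty acid and triglyceride synthesis genes (right). An asterisk marks the genes called higher. Their dTAG-S30 points all lie to the right of their DMSO-S30 points, and no called gene of the comparison had overlapping groups.

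Genes that take up, move or sense sterol changed less. Of 16 tested, 4 rose and none fell (median log2 fold change 0.09), with 9 of the 16 at an unadjusted p under 0.05. Without the spike-in factor (TMM, DESeq2 size factors or upper quartile) or in the likelihood ratio test, 1 of the 16 was called lower. STARD4, which carries sterol within the cell, stood at 71.1, 72.6 and 65.5 CPM with DMSO and 93.4, 84.7 and 78.6 CPM with dTAG. NPC1, which moves sterol out of lysosomes, stood at 226, 219.8 and 244 CPM and 290.0, 250.2 and 294 CPM. As in all 164 called genes, the DMSO and dTAG libraries did not overlap for any of the 4. None of the 4 passed when libraries were scaled by their ERCC counts. Between 1 and 5 passed with 1 library left out: 1 passed when DMSO-S30 replicate 2 was omitted and 2 when the third DMSO-S30 replicate was. STARD4 was lost without DMSO-S30 replicate 3 or dTAG-S30 replicate 1 or 2, and NPC1 without DMSO-S30 replicate 2 or dTAG-S30 replicate 1 (adjusted p up to 0.192 and 0.232).

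The genes that encode the regulators themselves were not called. SREBF2, which encodes the sterol-responsive SREBP-2, stood at 308, 304 and 316 CPM and 353, 358 and 383 CPM (log2 fold change 0.23 ± 0.06, adjusted p = 0.0516), and SREBF1 at 151, 147 and 161 CPM and 164, 150.2 and 173 CPM (adjusted p = 0.713). SCAP, MBTPS1 and MBTPS2, which escort and cleave SREBP, had log2 fold changes between -0.10 and 0.09. ABCA1, which exports sterol and answers to the opposing LXR factors, had 1.23, 1.67 and 1.45 CPM and 0.853, 0.581 and 0.589 CPM (log2 fold change -1.08 ± 0.30, adjusted p = 0.0868). Its 2 groups did not overlap, at levels of about 1 CPM.

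Fatty acid and triglyceride synthesis rose beside sterol synthesis: 12 of 22 genes rose and none fell (median log2 fold change 0.22). The enzymes that make acetyl-CoA and the carbon chain were ACSS2, which activates acetate, with 47.9, 48.4 and 51.2 CPM with DMSO and 88.7, 74.6 and 85.7 CPM with dTAG, and FASN, fatty acid synthase, with 666, 567 and 579.6 CPM and 849, 937 and 1015 CPM. ATP-citrate lyase, ACLY, had 369, 332 and 341 CPM and 429.8, 474 and 478 CPM. Acetyl-CoA carboxylase 1, ACACA, had 496, 504 and 501 CPM and 630.0, 584 and 591 CPM. These 4 steps rose by a fitted 69.5%, 52.2%, 30.8% and 21.1%. ACACB, the mitochondrial form of the carboxylase, had 31.2, 34.5 and 33.9 CPM and 31.6, 30.2 and 35.4 CPM, and its groups overlapped.

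Among enzymes that modify or store the chain, the stearoyl-CoA desaturase SCD rose from 1694, 1466 and 1405 CPM to 2266, 2614 and 2439 CPM, and the elongase ELOVL6 from 146, 149 and 153 CPM to 202, 196 and 186 CPM. LPIN1, a phosphatidate phosphatase, rose from 45.6, 47.1 and 48.2 CPM to 77.8, 74.2 and 73.6 CPM. ACSL1, PNPLA3, FADS1, ACSL3 and ACSL4 also rose, by log2 fold changes of 0.50, 0.45, 0.26, 0.22 and 0.22. FADS2, the neighbour of FADS1 that overlaps it, stood at 32.6, 33.7 and 31.3 CPM and 31.4, 30.8 and 32.1 CPM, and the triglyceride-forming DGAT1 and DGAT2 had log2 fold changes of 0.02 and -0.25, with none of these 3 called. ACACA, FADS1, ACSL3 and ACSL4 lost their calls on omitting DMSO-S30 replicate 2 or 3 (adjusted p up to 0.0673, 0.159, 0.201 and 0.281), which left 8 of the 12 in either case, and 8 passed with ERCC scaling.

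Several further lipid genes outside the lists were called higher, and were chosen for naming after their values were seen. PCYT2, of phosphatidylethanolamine synthesis, stood at 46.4, 41.7 and 43.3 CPM with DMSO and 60.2, 61.6 and 71.9 CPM with dTAG. The lipoprotein receptors LRP8 and SCARB1 had log2 fold changes of 0.34 and 0.32. Those of ERG28, which scaffolds sterol demethylation enzymes, and of the cytochrome P450 reductase POR were 0.34 and 0.27. PCYT2 and LRP8 passed in every fit with 1 library left out, and PCYT2 passed with ERCC scaling too. ERG28 was lost without DMSO-S30 replicate 3 or dTAG-S30 replicate 1, SCARB1 without DMSO-S30 replicate 2, and POR without any of 4 serum libraries (adjusted p up to 0.0548, 0.0676 and 0.450).

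In the NF-kappaB pathway, the RelA and NF-kappaB1 factors are held back by inhibitors that they themselves induce. Of 21 genes tested, 2 rose and none fell, and 18 of the 21 had values above 0 (median log2 fold change 0.20). BIRC3, an E3 ubiquitin ligase that blocks cell death downstream of TNF receptors, had the largest rise of any called gene: 7.80, 9.08 and 6.81 CPM with DMSO against 19.3, 19.7 and 17.8 CPM with dTAG (2.35-fold, adjusted p = 2.46e-07). Its paralog BIRC2 stood at 77.5, 81.9 and 75.5 CPM and 76.2, 83.5 and 78.0 CPM. TNFAIP2 rose from 30.8, 30.2 and 38.1 CPM to 43.3, 41.8 and 41.3 CPM, a call lost without DMSO-S30 replicate 1 or 2 or dTAG-S30 replicate 1 or 2 (adjusted p up to 0.233). The feedback inhibitors NFKBIA and TNFAIP3 had log2 fold changes of 0.27 ± 0.08 and 0.41 ± 0.13 and were not called (adjusted p = 0.104 and 0.158). The count of 2 depended on the setting: 5 passed without the spike-in factor, 6 in the likelihood ratio test and 1 with ERCC scaling. It was 4 without DMSO-S0 replicate 1 and 1 without DMSO-S30 replicate 2 or dTAG-S30 replicate 2.

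The BIRC3 promoter is shown because this gene had the largest called rise. It is the 250 bases before the RefSeq start on the plus strand of chr11:102317234-102317483 (GRCh38.p14), with matches to the NF-kappaB motif on the other strand in capitals. The deposited annotation starts BIRC3 within the last part of this window.
BIRC3: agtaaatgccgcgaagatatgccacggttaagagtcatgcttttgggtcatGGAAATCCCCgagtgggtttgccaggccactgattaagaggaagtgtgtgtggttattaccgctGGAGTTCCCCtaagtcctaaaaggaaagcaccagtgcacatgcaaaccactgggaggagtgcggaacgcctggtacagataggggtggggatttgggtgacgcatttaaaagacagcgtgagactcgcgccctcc
The 2 matches began 199 and 135 bases before the start. The motif was present in 5.72% of all RefSeq promoters on either strand, counted over windows that also ran past the start. It was searched for after the rise of BIRC3 was known.

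Of 18 genes of the unfolded protein and integrated stress responses, HYOU1, ASNS and HSPA5 rose and none fell (median log2 fold change 0.14). HSPA5, the chaperone BiP, stood at 411, 376 and 368 CPM with DMSO and 436, 485 and 459 CPM with dTAG. HYOU1, another chaperone of that compartment, stood at 179, 159 and 172 CPM and 208, 220.0 and 241 CPM. The amino acid enzyme ASNS stood at 58.1, 59.3 and 59.1 CPM and 72.5, 75.3 and 67.7 CPM. Their factors ATF4, DDIT3 and XBP1 were not called (log2 fold changes 0.09, 0.12 and 0.25). None of the 3 passed without DMSO-S30 replicate 2 (adjusted p up to 0.244), and 1 passed with ERCC scaling or on omitting either the third DMSO-S30 replicate or the second of dTAG-S30. Named after their values were seen, SLC7A11, which imports cystine, and VEGFA, the angiogenic growth factor, were also called higher. SLC7A11 stood at 24.6, 21.6 and 21.9 CPM and 34.9, 33.9 and 25.2 CPM, and VEGFA at 56.7, 53.7 and 62.1 CPM and 68.8, 71.7 and 75.6 CPM. The VEGFA call was lost without DMSO-S30 replicate 2 or dTAG-S30 replicate 2 (adjusted p up to 0.251).

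Among genes called lower, the 12 largest falls by the same rule were GPR15, FJX1, PTGS2, CCN2, ZNF214, SNAI1, INPP5D, NOTUM, H4C8, CCDC71L, STPG4 and SLC45A1, with log2 fold changes from -1.13 to -0.58. SNAI1, a repressor of epithelial genes, stood at 16.8, 15.4 and 13.0 CPM with DMSO and 8.57, 10.5 and 9.79 CPM with dTAG. CDH1, the E-cadherin gene and a textbook target of that repressor, stood at 100.4, 88.0 and 91.3 CPM and 112, 106 and 111 CPM and was called higher (log2 fold change 0.24 ± 0.06, adjusted p = 0.0455). The CDH1 call was lost without any of 5 serum libraries (adjusted p up to 0.369). All 6 tested markers of colorectal epithelium, CDH1 among them, had values above 0. A link between the SNAI1 and CDH1 changes was not tested. INPP5D, a phosphatase of phosphoinositides, stood at 8.44, 8.41 and 8.89 CPM and 5.43, 5.95 and 5.71 CPM. SLC45A1 stood at 21.6, 21.7 and 24.4 CPM and 14.5, 14.9 and 17.8 CPM. H4C8, a replication-dependent histone gene of a near-identical family, lost its call without any of 5 serum libraries and ZNF214 without DMSO-S30 replicate 3 or dTAG-S30 replicate 1 (adjusted p up to 0.184 and 0.0959). H4C8 was also not called under any of the 4 scalings without the spike-in factor (adjusted p up to 0.156). CCDC71L lost its call without DMSO-S30 replicate 2 (adjusted p = 0.0793). CAVIN2 and SDR42E2, left out by the rule's count minimum and named after their values were seen, fell by 1.33 and 1.02 on the log2 scale from between 1.85 and 3.19 CPM with DMSO, with calls that were lost in 2 and 4 of the fits without 1 library (adjusted p up to 0.0600 and 0.154).

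YAP-TEAD target genes, which respond to cell tension, attachment and serum, were the list with most genes called lower: 6 of 18 fell and 1 rose (median log2 fold change -0.14). CCN2, a secreted matricellular protein also known as CTGF, stood at 48.2, 42.3 and 46.4 CPM with DMSO and 26.6, 24.8 and 27.6 CPM with dTAG, a fall by 41.8% (log2 fold change -0.78 ± 0.09, adjusted p = 7.41e-06). CCN1, its relative CYR61, stood at 715, 665 and 719 CPM and 545, 588 and 607 CPM. The receptor kinase AXL stood at 111, 109 and 117 CPM and 85.7, 86.3 and 89.4 CPM. In these 3 genes each dTAG library lay below each DMSO library, and no called gene had overlapping groups. AMOTL2 and LATS2, feedback inhibitors of YAP, fell by 18.6% and 17.8%, and CRIM1 fell by 15.6%. F3, tissue factor, rose from 49.8, 45.4 and 48.2 CPM to 65.3, 58.8 and 62.2 CPM. TEAD1, the DNA-binding partner, stood at 289, 292 and 307 CPM and 319, 294 and 298 CPM and was not called.

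CCN2 and AXL passed in every fit with 1 library left out. The count of 6 became 4 on omitting replicate 2 of either S30 group, 3 on omitting DMSO-S30 replicate 3, and 2 with ERCC scaling. LATS2 and CRIM1 were lost without those 3 libraries (adjusted p up to 0.227 and 0.232), CCN1 without DMSO-S30 replicate 3 or dTAG-S30 replicate 1 (adjusted p up to 0.0903) and F3 without DMSO-S30 replicate 2 or dTAG-S30 replicate 1 (adjusted p up to 0.138). The CCN2 promoter is shown for the TEAD motif GGAATG, in capitals, within the 250 bases before the RefSeq start on the minus strand of chr6:131951373-131951622 (GRCh38.p14).
CCN2: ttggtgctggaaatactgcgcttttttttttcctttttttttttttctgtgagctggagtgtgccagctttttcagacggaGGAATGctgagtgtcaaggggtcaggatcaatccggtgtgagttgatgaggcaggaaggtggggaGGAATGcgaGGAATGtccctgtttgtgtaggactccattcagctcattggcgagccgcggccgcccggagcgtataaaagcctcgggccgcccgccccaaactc
The 3 matches began 169, 104 and 95 bases before the start, and the last overlaps a match to the NF-kappaB motif. GGAATG on either strand was present in 14.05% of all RefSeq promoters, counted over windows that also ran past the start. CCN2 was chosen after its value was seen.

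Immediate early genes encode the first transcription factors made after serum. Of 11 AP-1 and related bZIP genes, 2 fell and none rose, and 9 of the 11 had values below 0 (median log2 fold change -0.22). ATF3 stood at 1025, 991 and 1109 CPM with DMSO and 843, 727 and 779 CPM with dTAG (fall by 24.3%, adjusted p = 0.000770). FOS stood at 536, 456 and 464 CPM and 372, 403 and 399 CPM (fall by 19.98%, adjusted p = 0.0111), and its call was lost without dTAG-S30 replicate 1 (adjusted p = 0.111). FOSB, JUN and JUNB had log2 fold changes of -0.22, -0.25 and -0.22 and were not called (adjusted p = 0.0642, 0.0764 and 0.201). FOSB and JUN were called lower in 15 and 12 of the alternative fits, those without 1 library included. Over the 11 alternatives other than leaving out 1 library, between 1 and 6 genes of the list fell. The number that fell was 1 without dTAG-S30 replicate 1 or with ERCC scaling, 3 without DMSO-S30 replicate 1 or 2, 4 without dTAG-S0 replicate 1 or 3 or any DMSO-S0 library, and 6 without dTAG-S30 replicate 3.

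Of 21 EGR, NR4A, KLF and other early regulators, EGR2, EGR3 and CSRNP1 fell and none rose (median log2 fold change -0.10). EGR3 stood at 208, 203 and 232 CPM with DMSO and 159, 156 and 176 CPM with dTAG, and EGR2 at 76.5, 66.9 and 75.7 CPM and 52.2, 55.7 and 56.8 CPM. CSRNP1 stood at 132, 132 and 134 CPM and 107, 113 and 115 CPM. The 3 genes fell by 25.4%, 23.6% and 17.5%. EGR1 and NR4A1 had log2 fold changes of -0.23 ± 0.07 and -0.10 ± 0.06 and were not called (adjusted p = 0.149 and 0.632). NR4A3 was not called either (log2 fold change -0.27, adjusted p = 0.140). EGR1 and NR4A3 were called lower in 5 and 11 of the alternative fits, those without 1 library included. KLF4, KLF5 and KLF6 lay slightly above 0 (0.09, 0.11 and 0.08). EGR2 and CSRNP1 lost their calls without DMSO-S30 replicate 3 or dTAG-S30 replicate 1 (adjusted p up to 0.144 and 0.0546), and none of the 21 passed with ERCC scaling. The number that fell was 1 without DMSO-S30 replicate 3 and 5 without DMSO-S0 replicate 1, DMSO-S0 replicate 3 or dTAG-S30 replicate 3.

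Genes that restrain the early response were mostly not called. Of 16 feedback inhibitors of RAS-ERK signaling, only DUSP2, a nuclear MAP kinase phosphatase, fell, from 168, 163 and 193 CPM to 137, 141 and 157 CPM. DUSP1 and DUSP5 had log2 fold changes of -0.18 and -0.14 and were not called. Of 9 mRNA decay and antiproliferative genes only BTG2 fell, from 268, 253 and 289 CPM to 220.4, 213 and 232 CPM. DUSP2 was lost without DMSO-S30 replicate 3 or dTAG-S30 replicate 1 or 2, and BTG2 without DMSO-S30 replicate 3 (adjusted p up to 0.227 and 0.107). PTGS2, the inducible cyclooxygenase, was the only gene called of 8 in the prostaglandin E2 list and stood at 9.67, 9.65 and 9.95 CPM and 5.12, 5.72 and 6.25 CPM.

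Other serum-raised genes that fell, named after their values were seen, were THBS1, RGS2 and PMAIP1. THBS1, the matrix protein thrombospondin-1, stood at 903, 867 and 1032 CPM with DMSO and 721, 638 and 700.5 CPM with dTAG. RGS2, a G protein inhibitor, stood at 89.1, 83.8 and 86.3 CPM and 66.6, 63.7 and 60.6 CPM, and PMAIP1, the cell death gene NOXA, at 113, 119 and 115 CPM and 87.9, 95.9 and 94.0 CPM. All 3 calls held with each library left out, and PMAIP1 was not called with ERCC scaling (adjusted p = 0.0566).

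Among 21 genes of KAP1 and its partners, 3 fell and none rose. ATF7IP, the cofactor that stabilises SETDB1, stood at 149.8, 142 and 140.1 CPM with DMSO and 109.6, 113 and 105 CPM with dTAG. TASOR, a core subunit of the HUSH silencing complex that overlaps CCDC66 on the other strand, stood at 126, 133 and 128 CPM and 101, 102 and 94.0 CPM. MORC2, the ATPase that HUSH recruits, stood at 41.4, 33.8 and 39.9 CPM and 25.6, 25.9 and 27.7 CPM. The 3 genes fell by 23.6%, 23.2% and 31.4%, and all passed with each library left out and with ERCC scaling. SETDB1 itself, with 88.1, 87.4 and 85.6 CPM and 84.2, 83.9 and 84.3 CPM, and the HUSH subunits MPHOSPH8 and PPHLN1 were not called (log2 fold changes -0.05, 0.04 and -0.05). The HP1 genes CBX1, CBX3 and CBX5 had log2 fold changes between -0.10 and 0.03.

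ELL2, a subunit of the super elongation complex, was the only gene called of 30 elongation and termination factors. It stood at 325, 344 and 382 CPM with DMSO and 277, 205 and 238 CPM with dTAG (log2 fold change -0.51 ± 0.07, adjusted p = 0.000135). Its relative ELL stood at 38.6, 43.6 and 44.4 CPM and 40.0, 37.1 and 47.4 CPM. CDK9, SUPT5H and the NELF subunits were not called, with log2 fold changes from -0.05 to 0.16.

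ATG12, the ubiquitin-like protein that conjugates to ATG5, was the only gene called of 17 in the autophagy list, with 89.7, 91.2 and 95.8 CPM and 65.4, 65.2 and 62.6 CPM. AP3S1, an adaptor subunit for lysosomal sorting, fell with it, from 140.2, 149 and 145 CPM to 111, 107 and 99.7 CPM. The annotated ends of these genes overlap head to head on chromosome 5, where ATG12 spans 115828200 to 115841858 on the minus strand and AP3S1 spans 115841481 to 115914081 on the plus strand. They were the only pair of called genes within 100 kb of each other that changed in the same direction, out of 3 such pairs.

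Of 24 p53 target genes, 23 had values below 0 and 2 fell (median log2 fold change -0.17). DDB2, a DNA damage sensor, stood at 68.1, 75.0 and 77.9 CPM with DMSO and 58.3, 58.3 and 54.0 CPM with dTAG, and GDF15, a stress cytokine, at 92.0, 92.5 and 108 CPM and 76.5, 74.9 and 88.9 CPM. CDKN1A, the p21 gene, stood at 121, 111 and 113 CPM and 103, 116 and 114 CPM and was not called (log2 fold change -0.06 ± 0.06). FAS, SESN1 and BBC3 had log2 fold changes of -0.32, -0.31 and -0.27 and were not called (adjusted p = 0.0591, 0.0676 and 0.104). The 2 that fell became 1 on omitting DMSO-S30 replicate 3 or dTAG-S30 replicate 1 or 2, where GDF15 was lost (adjusted p up to 0.260), and 7 without DMSO-S0 replicate 1. They became 6 without DMSO-S0 replicate 2 or 3, 7 in the likelihood ratio test and 1 with ERCC scaling.

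Among Wnt target and feedback genes, 2 of 13 fell, both of them secreted inhibitors of Wnt signaling. DKK1, which blocks the LRP6 co-receptor, stood at 62.4, 62.5 and 64.5 CPM with DMSO and 47.9, 45.3 and 49.9 CPM with dTAG, and NOTUM, which removes the lipid from Wnt, at 7.95, 6.96 and 8.69 CPM and 5.03, 5.05 and 5.39 CPM. In both genes the 3 dTAG libraries lay below the 3 DMSO libraries, and no called gene had overlapping groups. AXIN2 and RNF43, the usual readouts of the pathway, had log2 fold changes of -0.06 and 0.06 and were not called. The NOTUM call was lost without any of 5 serum libraries (adjusted p up to 0.227), which left 1 gene without DMSO-S30 replicate 1 or 3 or dTAG-S30 replicate 1 or 2, and neither passed with ERCC scaling. ID2, a helix-loop-helix inhibitor induced by BMP, was the only gene called of 14 in the BMP and TGF-beta list, with 337, 319 and 331 CPM and 249, 234 and 221 CPM, while ID1 and ID3 were not called (log2 fold changes -0.12 and -0.10). ID2 passed in every fit, and a second gene of that list passed without any DMSO-S0 library or without dTAG-S30 replicate 1 or 3, which made 2.

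Interferon genes are known to respond when transposable elements are transcribed and sensed. Of 26 tested, 2 fell and none was called higher by edgeR's quasi-likelihood test, its likelihood ratio test or DESeq2, with 8 of the 26 at an unadjusted p under 0.05 in either direction. The 2 became 1 without DMSO-S30 replicate 1 or 3 or dTAG-S30 replicate 2. IFIT1, an inhibitor of viral translation that overlaps LIPA on the other strand, stood at 14.2, 13.4 and 14.6 CPM with DMSO and 9.11, 9.57 and 10.8 CPM with dTAG. HERC5, the ligase for ISG15, stood at 28.1, 26.9 and 25.4 CPM and 22.04, 21.6 and 20.6 CPM, and its call was lost without any of 5 serum libraries (adjusted p up to 0.121). The sensors RIGI, IFIH1 and MAVS had log2 fold changes of 0.02, 0.20 and 0.04. TLR3 had 1.33, 0.749 and 0.869 CPM and 1.48, 1.79 and 1.22 CPM (adjusted p = 0.291). Transposable elements were not analysed here.

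No gene was called by edgeR's quasi-likelihood test in the lists of SRF and actin genes (19 tested), chemokines and cytokines (9), EGF ligands and receptors (10), heat shock chaperones (13), zinc finger genes on chromosome 19 (140), cytosolic ribosomal proteins (72) and mitochondrial genes (13). At an unadjusted p under 0.05 these lists held 2, 4, 1, 2, 9, 7 and 1 genes, of 1380 over all genes. The first 4 of these lists were also counted with each library left out, and a single library decided 3 of their zeros. An SRF gene passed without dTAG-S30 replicate 3, and a chemokine and a heat shock gene passed without dTAG-S30 replicate 1. The zinc finger, ribosomal and mitochondrial lists were not counted in the alternative fits. The likelihood ratio test called 1 chemokine, and DESeq2 called none of the first 4 lists. The SRF target ACTB, beta-actin, stood at 1222, 1063 and 1130 CPM with DMSO and 1080, 1285 and 1269 CPM with dTAG. The ribosomal protein genes had values below 0 for 69 of 72 (median log2 fold change -0.10), and the mitochondrial genes for 13 of 13 (median -0.08). Over all genes tested it was 6580 of 13093. Whether these small shifts hold under another scaling was not tested. The zinc finger genes, among which are the KRAB proteins that bring KAP1 to DNA, had values above 0 for 68 and below 0 for 72 of 140 (median -0.0048).

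**Figure D3:**
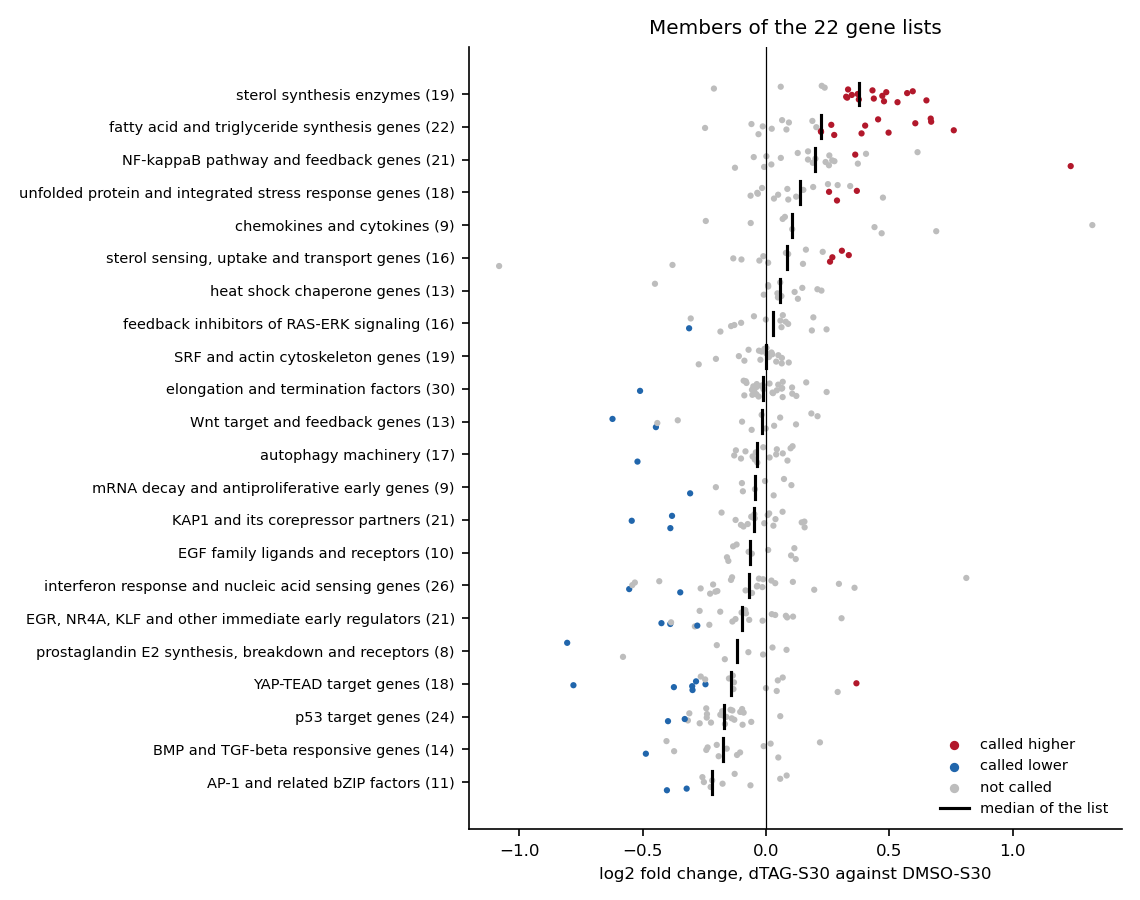
Each point is a tested gene of 1 of the 22 hand-made lists, placed by its log2 fold change between dTAG-S30 and DMSO-S30, with the number tested in brackets and the list median as a black bar. Sterol synthesis has the highest median (0.38) and the AP-1 list the lowest (-0.22).

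The same 8 h of dTAG without serum, in libraries that share none with the serum comparison but share its fit, called 193 genes (1.47%), 126 higher (0.962%) and 67 lower (0.512%), or 61 and 15 with ERCC scaling. Omitting replicate 3 of dTAG-S0 gave 111 calls, omitting its replicate 2 gave 311, and omitting replicate 3 of dTAG-S30 gave 313. The lower calls were 38 when dTAG-S0 lost its replicate 1, 117 when DMSO-S30 did and 123 when DMSO-S0 lost its replicate 3. Of the 80 genes called higher with serum, 58 were also called higher without it, which is 72.5% of the first list and 46.03% of the second. For the genes called lower the shared number was 29, which is 34.5% of the 84 and 43.3% of the 67. No gene was called in opposite directions. All 80 genes called higher had values above 0 without serum, and 67 of the 84 called lower had values below 0.

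Without serum, 16 of the 19 sterol enzymes rose, 15 of them called with serum too, and 12 of the 22 fatty acid genes rose, of which 11 were called with serum. In the NF-kappaB list 6 of 21 were called higher without serum (median log2 fold change 0.23), 1 of them with serum too. In the unfolded protein and integrated stress response list it was 6 of 18 (median 0.22), 3 of them called with serum too. DHCR7 stood at 93.0, 95.2 and 89.9 CPM in DMSO-S0 and 149.5, 134 and 159 CPM in dTAG-S0, and SCD at 1525, 1413 and 1460 CPM and 2232, 2078 and 2441 CPM. ATF7IP, TASOR and MORC2 fell in both settings, MORC2 from 42.1, 38.2 and 39.8 CPM to 27.4, 27.3 and 28.5 CPM without serum. ID2 did so too (155, 150.1 and 134 CPM and 108, 101 and 102 CPM). FOS and CCN1, which fell with serum, were low before it: FOS stood at 6.41, 5.18 and 4.86 CPM and 5.08, 4.63 and 5.04 CPM without serum, and CCN1 at 9.96, 9.45 and 8.09 CPM and 8.70, 7.92 and 7.74 CPM. Some early gene lists changed sign. The AP-1 list had a median log2 fold change of 0.22 without serum, with 2 genes called higher, against -0.22 with serum. For the EGR, NR4A and KLF list the medians were 0.12, with none called, and -0.10. Of the 16 RAS-ERK feedback inhibitors, 3 were called higher without serum and 0 lower. The YAP-TEAD list kept its sign, with medians of -0.13 and -0.14.

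**Figure D4:**
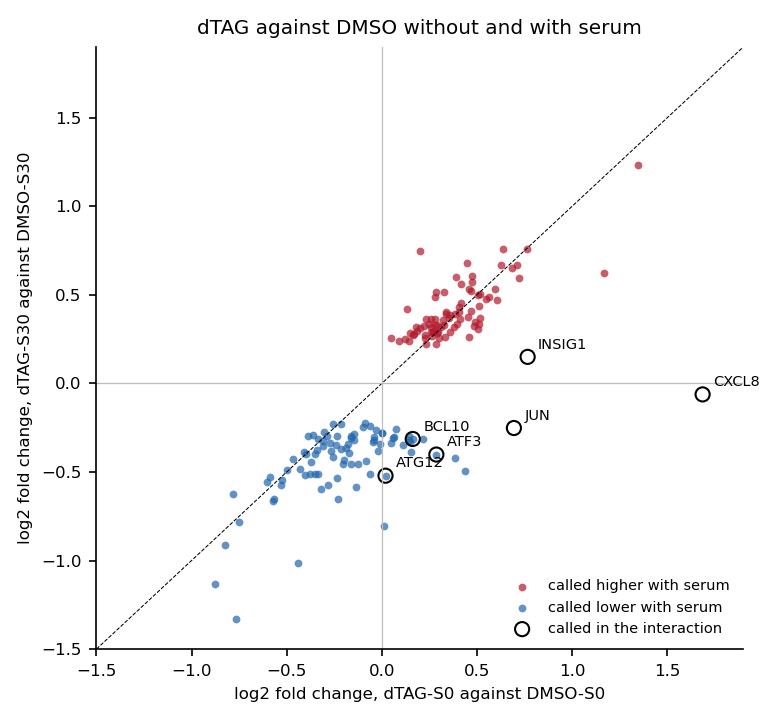
Each point is 1 gene, placed by its log2 fold change for dTAG against DMSO without serum (horizontal) and with serum (vertical). Genes called in the serum comparison are coloured by direction, and all 80 called higher lie to the right of 0 on the horizontal axis.

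Whether the dTAG effect differed with serum was tested by the interaction of both treatments over all 12 libraries. It was called for 6 genes (0.0458%), all lower, and at an unadjusted p under 0.05 for 439. Without DMSO-S30 replicate 1 or dTAG-S30 replicate 3 it was called for 11 or 14 genes. No gene was called higher with edgeR's quasi-likelihood test or with DESeq2, and 1 was with the likelihood ratio test. Of the 6, ATF3, ATG12 and BCL10 fell with serum and were not called without it. CXCL8, JUN and INSIG1 rose without serum and were not called with it. For ATG12 the levels were 70.9, 70.1 and 68.3 CPM in DMSO-S0 and 70.7, 72.0 and 69.2 CPM in dTAG-S0, so the groups overlapped without serum and were 89.7, 91.2 and 95.8 CPM against 65.4, 65.2 and 62.6 CPM with it. The falls of FOS, EGR2 and EGR3 with serum were not called in the interaction (adjusted p = 1, 1 and 0.0658).

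**Figure D5:**
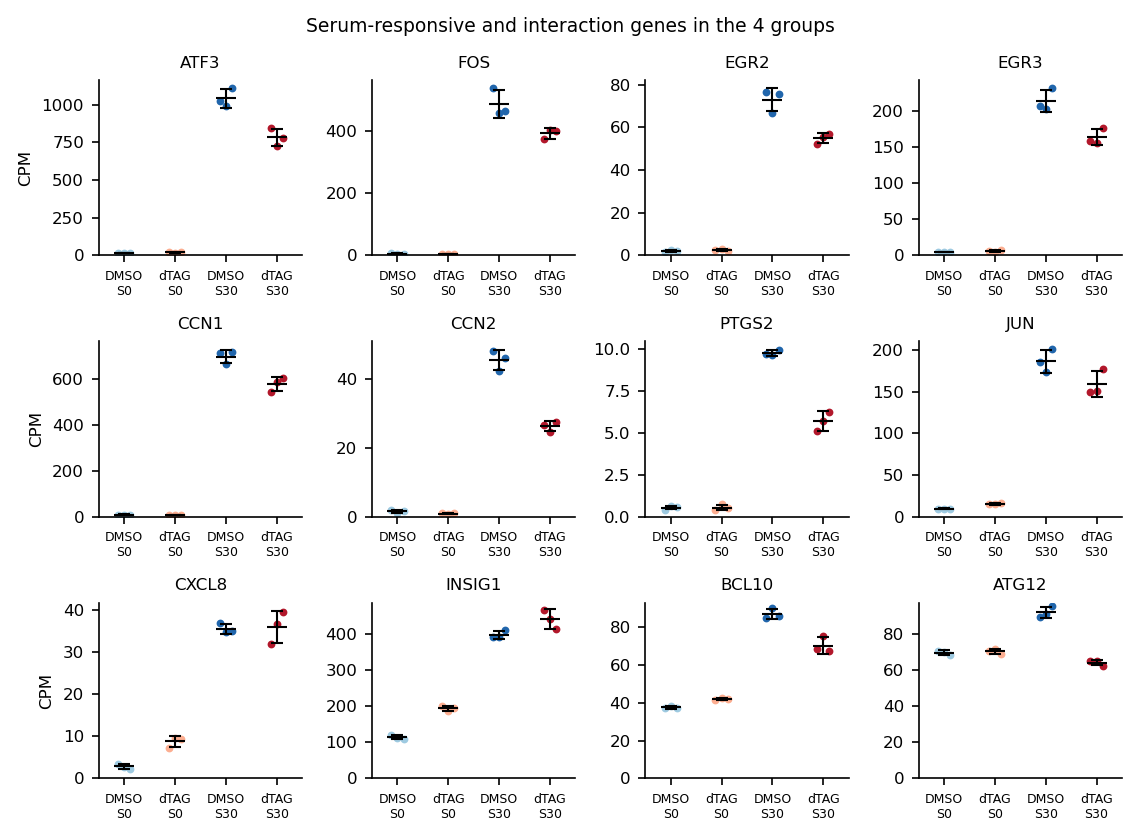
CPM of 12 genes, chosen after their values were seen, in the 4 groups, with 1 point for each library and bars for the mean ± SD (n = 3). ATF3, FOS, EGR2, EGR3, CCN1, CCN2 and PTGS2 are low without serum and lower with dTAG than with DMSO after serum, while CXCL8 and INSIG1 differ without serum and overlap or nearly meet after it.

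Calls followed depth. With the genes split into 4 equal bins by mean count, 15 were called in the lowest bin (mean 5.33 to 230 counts) and 66 in the highest, and the smallest called change fell from 0.52 to 0.22 on the log2 scale. No smaller change passed the test in either bin. The genes called higher had a median length of 37.3 kb and those called lower of 19.1 kb, against 35.5 kb for genes not called. Of the deposited gene spans, 27.5% of the genes called higher, 23.8% of those called lower and 34.3% of the others overlapped another gene.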

How the data were processed

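RNA-Seq of total RNA was compared between 3 dTAG-S30 and 3 DMSO-S30 libraries, with 3 dTAG-S0 and 3 DMSO-S0 libraries in the same fit. The deposited values are raw counts per gene, which the authors made by trimming reads with Trim Galore 0.6.4, aligning them with STAR to hg38 and counting with featureCounts (Subread 1.6.3). The deposited gene lengths equal the whole gene span, introns included. The strand setting of the counting is not given in the sources used here. The 12 libraries held 20537682 to 26278707 counts, ERCC transcripts included.

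Genes with 10 or more counts in 6 libraries were scaled by upper quartile, and RUVg took 1 factor of unwanted variation from 69 ERCC transcripts. Counts were tested with edgeR 4.0.16 in R 4.3.3 (quasi-likelihood F-test, two-sided, over all 12 libraries), with Benjamini-Hochberg adjustment over 13093 genes and a call at an adjusted p under 0.05. The pipeline was tested on simulated data. Alternatives were other scalings, filters, DESeq2 1.42.0, edgeR's likelihood ratio test, a replicate block, the 6 serum libraries alone and leaving out each library. ERCC scaling means library sizes from ERCC counts alone.

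Same-numbered libraries did not deviate together (correlations -0.15, -0.0017 and 0.086), so no pairing was used. Named genes were TRIM28, FOS, ATF3, NR4A1 and EGR1, the 12 largest rises and falls among called, non-overlapping genes with a mean count of at least 50, up to 4 members of each list by p and all other called members, and genes called in the interaction. Further list members were named to place these in their pathway. The members and the lists were chosen with earlier results of these data known. Promoters came from RefSeq (GRCh38.p14), which gave one for 10414 of the 13093 genes. Motifs were searched after the values were seen. Some list members are counted but not reported here by name.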

Additional observations from a re-analysis of the deposited data

Results flagged for a closer look

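The dTAG effect differed between cells with and without serum for 6 genes (interaction, edgeR's quasi-likelihood test, n = 3 libraries a group, adjusted over all genes tested). In each the difference with serum minus without it was negative.

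CXCL8, a chemokine, had a log2 difference of -1.75 (adjusted p = 1.38e-06). CXCL8 stood at 3.39, 2.80 and 2.31 CPM in DMSO-S0 and 7.19, 9.70 and 9.41 CPM in dTAG-S0, and at 37.0, 34.7 and 34.96 CPM in DMSO-S30 and 32.0, 36.7 and 39.5 CPM in dTAG-S30. JUN, an AP-1 subunit, differed by -0.95 (adjusted p = 0.000202), with 9.70, 9.95 and 9.86 CPM and 15.4, 14.9 and 17.1 CPM without serum and 185, 173 and 200.4 CPM and 149.6, 151 and 177 CPM with it. INSIG1, which retains the SREBP escort in the endoplasmic reticulum, differed by -0.62 (adjusted p = 0.000694), with 119.8, 111 and 110.2 CPM and 199.8, 187 and 194 CPM without serum and 390.4, 391 and 411 CPM and 467, 442 and 413 CPM with it. These 3 genes rose with dTAG without serum.

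ATF3 differed by -0.69 (adjusted p = 0.00518), with 16.4, 14.4 and 16.1 CPM and 18.9, 18.1 and 20.3 CPM without serum and 1025, 991 and 1109 CPM and 843, 727 and 779 CPM with it. ATG12 differed by -0.54 (adjusted p = 0.00215), with no overlap of the groups only after serum. BCL10, an adaptor upstream of NF-kappaB, differed by -0.48 (adjusted p = 0.0427), with 37.2, 38.4 and 37.0 CPM and 41.3, 42.5 and 41.8 CPM without serum and 84.7, 90.1 and 85.9 CPM and 68.4, 75.2 and 67.2 CPM with it. These 3 genes fell with dTAG after serum. The BCL10 interaction was lost without any of 5 libraries (DMSO-S30 replicate 2 or 3, dTAG-S0 replicate 2 or 3, dTAG-S30 replicate 1; adjusted p up to 0.140). With ERCC scaling the interactions of BCL10, ATF3 and ATG12 were not called.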

How the results depend on the processing

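For dTAG-S30 against DMSO-S30, the 164 calls became 66 with ERCC library sizes (34 higher, 32 lower), 287 with no count filter (175 lower), 277 in the likelihood ratio test (121 higher, 156 lower) and 314 with the 6 serum libraries alone (136 higher, 178 lower). The genes called lower were 130 with TMM and 135 with DESeq2 size factors. Leaving out 1 library gave 99 to 267 calls (39 to 115 higher, 48 to 152 lower). Without serum, the 193 calls became 76 with ERCC library sizes (61 higher, 15 lower), 315 with no filter (147 lower) and 310 in the likelihood ratio test (134 lower), and 111 to 313 with 1 library left out (74 to 193 higher, 37 to 130 lower). The 6 interaction calls became 3, 24 and 16 in those settings (1 higher and 15 lower in the last) and 10 in DESeq2, all lower, and 5 to 14 with 1 library left out. The cause of these shifts was not tested. With a replicate block, which the numbering gives no ground for, the count was 181, and of the named genes CYP4F2 and EGR2 were not called. The ERCC share differed by -0.165 to 0.327 percentage points with 1 library left out. Among genes not called, CXCL8 changed sign with serum to 0.0172 (TMM), 0.0151 (DESeq2 size factors), 0.0206 (upper quartile alone), 0.0197 (ERCC library sizes) and 0.0109 (6 libraries). With 1 library left out CXCL8 ranged from -0.147 to 0.0215, TRIM28 from -0.101 to 0.0334, ITGAM from -0.729 to 0.206, PTPRC from -0.617 to 0.562 and TEK from -0.686 to 0.733. Of the 79 named genes that were called, 79 kept their direction in every alternative, 43 passed in every fit without 1 library and 76 passed in every other alternative but ERCC library sizes.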
